A study of Mus musculus with 16 samples.

Results

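The 44 interferon-stimulated genes described here are a fixed list of receptors, transcription factors and antiviral effectors of the type I interferon (IFN-I) response, out of the 49585 genes counted by RNA sequencing in mouse small intestinal organoids. They were found in the count table by their Ensembl identifiers without the version number, and all 44 were present. Of these, 38 had enough counts to be tested, and the other 6 (Usp18, Oas2, Ifi44, Xaf1, Herc6 and Gbp2) are described by their counts. The study asked how the autophagy gene Atg16l1 shapes the response of the intestinal epithelium to the cytokine IL-22. Organoids are self-organizing cultures grown from epithelial crypts. Those of villin-Cre-negative Atg16l1 fl/fl mice (labelled WT and called fl/fl here) carry floxed, intact Atg16l1. Those of villin-Cre-positive Atg16l1 ΔIEC mice (labelled KO, ΔIEC here) lack it in intestinal epithelial cells, because the villin promoter drives Cre there. Both genotypes therefore carry the floxed allele, and both were grown in the same stem cell medium with EGF, Noggin and R-Spondin 1. Each was left untreated or given IL-22 at 10 ng/ml for 24 h, with 4 cultures in each of the 4 groups. By the labels, each genotype is represented by 2 organoid lines, and each line by 2 cultures at either treatment. The first line gave replicates 1 and 2 of a group and the second line replicates 3 and 4. Genotype and line cannot be told apart with lines nested in genotype, and p-values measure the spread between cultures. The age of the mice is not in the labels.

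IFN-I binds the receptor subunits IFNAR1 and IFNAR2 and activates Janus kinases, which drive the assembly of ISGF3, a transcription factor that contains STAT2 and IRF9. ISGF3 binds IFN-stimulated response elements (ISRE) in the promoters of many effector genes, while STAT dimers bind gamma-activated sites (GAS). The effectors sense or degrade viral RNA, attach the ubiquitin-like protein ISG15 to other proteins, or block viral entry and budding, and a low level of this program is present in many tissues without infection. IL-22 acts on epithelial cells through a different receptor and mainly through STAT3.

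Library sizes ran from 2135000 to 5574860 gene counts. Levels are given as CPM (counts scaled to a common library size with TMM factors), as mean ± SD (n = 4 cultures) or culture by culture in the order of the replicates. A group in which every culture had at most 3 counts of a gene was taken to be at the floor, and floors cover counting error only. Atg16l1, the targeted gene, was counted at 31.5 to 51.6 CPM in the fl/fl cultures and at 0.288 to 5.94 CPM in the ΔIEC cultures, without overlap. The 5.94 CPM (21 counts) was that of treated ΔIEC replicate 2, in a group with a median of 0.554 CPM. The part of this remaining Atg16l1 in the member results was not tested. The epithelial markers Epcam, Cdh1, Vil1, Krt8, Krt18, Krt19, Krt20 and Cdx2 summed to at least 6630 CPM in every culture. The 13 immune markers summed to 11.6 to 21.5 CPM, with Cd3e and Itgax at 0 counts in all 16 cultures and Ptprc at no more than 1. Others of the list were detected. Csf1r was highest, at 6.40 to 13.3 CPM, and Cd68 reached 6.31, Lyz2 4.61 and Itgam 3.88 CPM. The 9 stromal and endothelial markers summed to 1.61 to 7.22 CPM. In bulk samples such as these, fewer cells of a type and less RNA per cell cannot be told apart.

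In untreated fl/fl organoids the 44 genes ran from the floor to 242 ± 25.1 CPM (Lgals3bp). At the floor were 7 genes, Usp18, Oas1g, Oas2, Sp100, Rtp4, Herc6 and Gbp2, with at most 3 counts in each of the 4 cultures. A further 15 lay below 10 CPM: Rsad2, Isg15, Slfn2, Ifit3, Xaf1, Ifit2, Ifi44, Oas3, Cmpk2, Isg20, Oas1a, Dhx58, Ifnar2, Ifit1 and Trim21. Another 16 lay between 10 and 50 CPM, among them the dsRNA-sensing kinase gene Eif2ak2 at 42.3 ± 3.18 CPM and the ADP-ribosylation gene Parp9 at 47.0 ± 4.13 CPM. Only Rnf213, Psme1, Irf1, Psme2, Trim25 and Lgals3bp were above 50 CPM. Per kilobase of exon, the highest of the 44 was Lgals3bp, a secreted galectin-binding glycoprotein, at 84.9 CPM per kilobase. Psme2, a proteasome activator subunit, followed at 60.7 and the membrane protein gene Ifitm3 at 60.4 CPM per kilobase, whereas Isg15 was at 1.27 and Rsad2 at 0.156.

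The floor was left in IL-22–treated ΔIEC organoids by all 7 of these genes. Oas2, Herc6 and Gbp2 were at the floor in the other 3 groups, while Usp18, Oas1g, Sp100 and Rtp4 were at the floor in untreated fl/fl organoids alone. Of the 44 genes, 38 had their highest group mean in IL-22–treated ΔIEC organoids, a count that was not made over all genes. The exceptions were Stat2, Ifnar1, Helz2, Uba7 and Isg20, highest in IL-22–treated fl/fl organoids, and Ifnar2, highest in untreated ΔIEC organoids. In 19 of the 44 all 4 treated ΔIEC cultures lay above all 12 other cultures, and 17 of these 19 were tested. The same held for 2.84% of all 12559 tested genes.

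**Figure D1:**
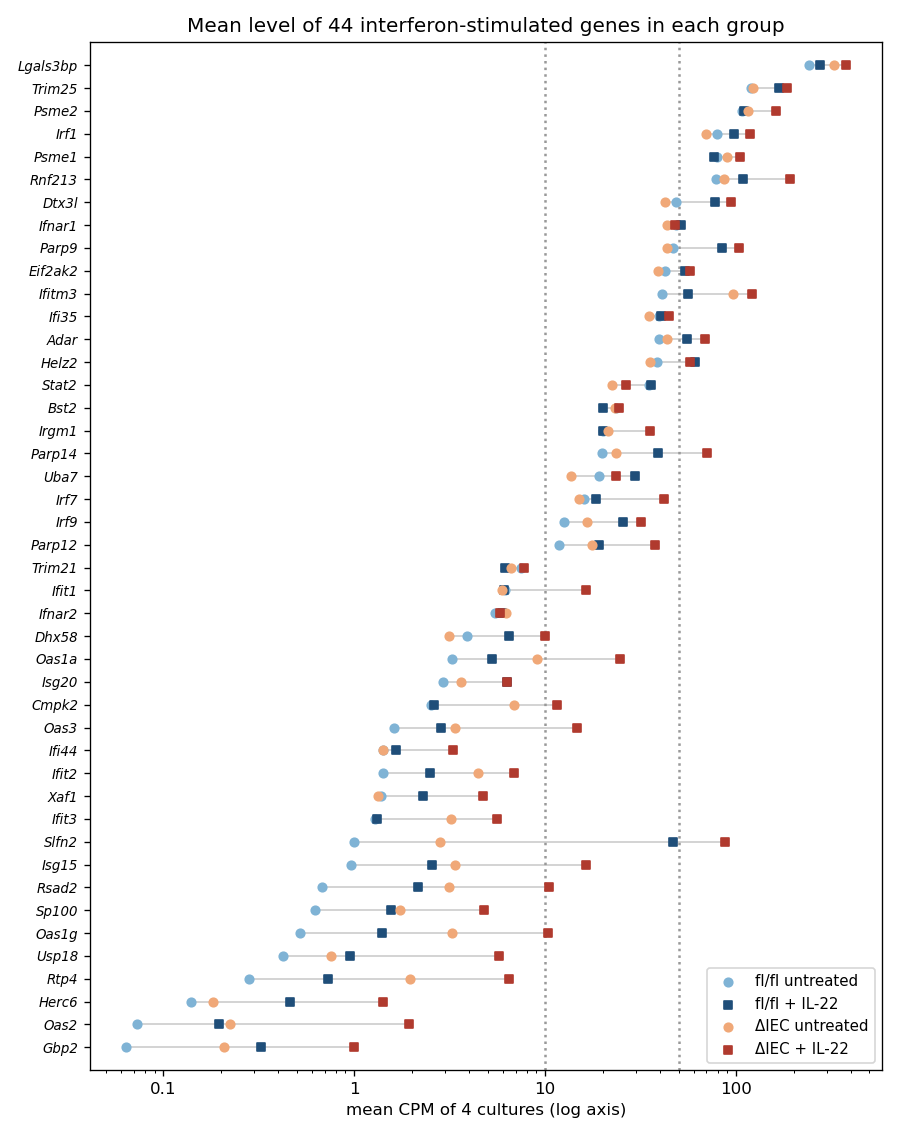
Mean CPM of 4 cultures (log axis) of each of the 44 genes in the 4 groups, ordered by the level in untreated fl/fl organoids; dotted lines mark 10 and 50 CPM. The red squares of IL-22–treated ΔIEC organoids lie farthest right for 38 of the 44 genes, which was not counted over all genes.

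The 12559 genes were tested together in each comparison (edgeR, quasi-likelihood, two-sided). Calls are at 0.01 after Benjamini-Hochberg adjustment. Effects in parentheses are log2 fold changes ± SE. For some genes a fit without the filter on low counts is also given. Its p-values for the 6 untested members are those of a normal distribution of the effect over its SE, which takes the spread as known. They do not measure a gene's own spread between cultures as the main fit does, so a pass in that fit alone carries little weight. In fl/fl organoids IL-22 raised 11 of the 38 tested members and lowered none, against 10.6% of all tested genes higher and 10.2% lower. In ΔIEC organoids IL-22 raised 22 of the 38 and lowered none, against 9.83% higher and 7.65% lower. Between untreated organoids, 4 members were higher in ΔIEC (Ifitm3, Oas1g, Lgals3bp and Ifit2) and none was lower, against 3.78% higher and 5.98% lower. Between IL-22–treated organoids, 21 members were higher in ΔIEC and none was lower, against 9.92% higher and 9.84% lower. The median log2 fold change of the 38 members was 0.50 for IL-22 in fl/fl, 0.79 for IL-22 in ΔIEC, 0.16 for genotype in untreated and 0.59 for genotype in treated organoids. Over all tested genes these medians were -0.05, -0.01, -0.02 and 0.01. The comparisons share control cultures and are given side by side. Of the 58 calls, 12 were lost without some single culture and 33 without some organoid line, where 2 cultures per group remain. Those held without any line are Parp9 and Slfn2 for IL-22 in fl/fl, Irf1, Irf7, Adar, Dtx3l, Parp9, Parp12, Parp14, Slfn2, Isg15, Oas1g and Oas3 for IL-22 in ΔIEC, Ifitm3 and Oas1g untreated, and Parp12, Parp14, Ifitm3, Isg15, Oas1a, Oas1g, Oas3, Rsad2, Lgals3bp and Psme2 with IL-22. In such a fit a single line stands for its genotype. With the cultures of a line summed, the calls of Irf7 for IL-22 in ΔIEC and of Ifitm3 and Oas1g untreated were lost. So were those of Parp12, Parp14, Oas1a, Oas3, Lgals3bp and Psme2 between genotypes with IL-22.

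The list was drawn up with results of these cultures known, so its counts are a description. The filter on low counts adds to them, since Ifit2, Ifit3, Isg15, Oas1g, Sp100 and Rtp4 passed it only through the treated ΔIEC cultures. Among the 32 members that passed outside that group, the counts of higher members were 11, 20, 2 and 16 in the order above. Within single lines, the IL-22 change on the log2 scale was positive in both lines for 31 of the 44 members in fl/fl and for 42 of the 44 in ΔIEC organoids. This was not counted over all genes, so no background share stands beside it. The mitochondrial share of gene counts was 0.671% to 0.883% in the treated ΔIEC cultures and 1.12% to 2.10% in the other 12, and its part in the results was not tested. Crypt stem markers (Lgr5, Olfm4, Ascl2) summed to 613 to 739 CPM in untreated ΔIEC and 178 to 361 CPM in untreated fl/fl cultures. With IL-22 they were at 222 to 356 and 104 to 128 CPM. Olfm4 made up most of the ΔIEC sum, at 514 to 658 CPM in untreated ΔIEC and 73.1 to 233 CPM in untreated fl/fl cultures, whereas Lgr5 ran from 46.3 to 94.3 and from 90.5 to 112 CPM. Ascl2 was higher in ΔIEC as Olfm4 was, at 35.0 to 42.2 against 14.55 to 19.7 CPM untreated. With IL-22 Ascl2 was at 20.6 to 30.1 CPM in ΔIEC and 7.49 to 13.5 CPM in fl/fl cultures. The goblet cell markers Muc2 and Tff3 summed to 376 to 528 CPM in untreated ΔIEC and 586 to 917 CPM in untreated fl/fl cultures. With IL-22 the sums were 241 to 414 and 549 to 752 CPM, and the genotypes did not overlap at either treatment. Tff3 made up most of these sums, and the markers went opposite ways with IL-22. Muc2 went from 31.0 to 54.2 CPM up to 66.6 to 117 CPM in ΔIEC and from 65.9 to 88.2 CPM up to 132 to 159 CPM in fl/fl cultures. Tff3 went from 343 to 486 CPM down to 170 to 297 CPM in ΔIEC cultures. In fl/fl cultures Tff3 was at 519.7 to 846.8 CPM untreated and 389.4 to 619.5 CPM treated, with overlap. The enterocyte markers Alpi, Fabp1 and Apoa4 went from 2294 to 2541 CPM down to 772 to 1011 CPM when treated in ΔIEC and from 1235 to 2267 CPM down to 403 to 1007 CPM in fl/fl cultures. The part of these cell types in the member results was not tested.

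**Figure D2:**
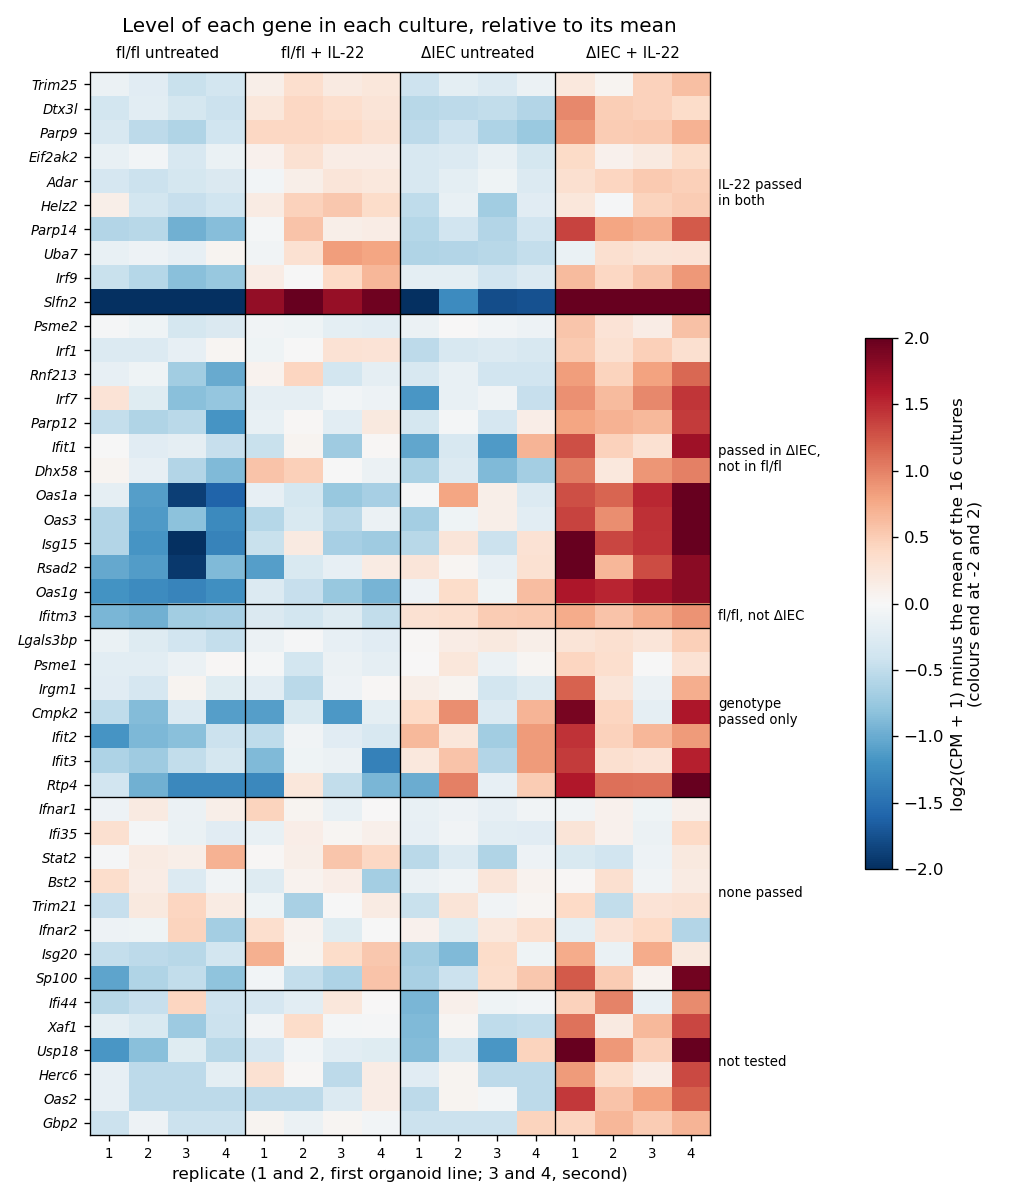
log2(CPM + 1) of the 44 genes in the 16 cultures, each gene relative to its own mean over all cultures (red above, blue below, colours end at -2 and 2), with rows grouped by which comparisons passed the threshold. Slfn2 turns from dark blue to dark red with IL-22 in both genotypes, whereas the block of 12 genes that passed in ΔIEC and not in fl/fl is red mainly in the 4 IL-22–treated ΔIEC cultures.

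By which comparisons passed, the 44 genes fell into 6 classes. IL-22 passed in both genotypes for 10 genes: Irf9, Adar, Dtx3l, Parp9, Parp14, Eif2ak2, Helz2, Slfn2, Trim25 and Uba7, of which 8 lay between 10 and 50 CPM in untreated fl/fl organoids. In 12 genes it passed in ΔIEC and not in fl/fl organoids: Irf1, Irf7, Parp12, Ifit1, Isg15, Oas1a, Oas1g, Oas3, Rsad2, Dhx58, Rnf213 and Psme2. Ifitm3 passed in fl/fl and not in ΔIEC organoids. A genotype difference without an IL-22 call was seen for 7 genes: Ifit2, Ifit3, Cmpk2, Lgals3bp, Irgm1, Rtp4 and Psme1. No comparison passed for Stat2, Ifnar1, Ifnar2, Trim21, Isg20, Sp100, Ifi35 and Bst2, and 6 genes were not tested. A class says which side of the threshold a gene fell on, and the difference of the IL-22 effects between genotypes, tested directly, passed for no member.

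Promoter sequence was available for 38 of the 44 genes (RefSeq, GRCm38.p6, 250 bases before to 50 after each annotated start). It was searched on both strands for the ISRE core GAAANNGAA and for the GAS core TTCNNNGAA, and copies may overlap each other. The ISRE core was found in 18 of the 38 genes (47.4%) and in 9.76% of 27025 genes with such a window, and the GAS core in 11 of 38 (28.95%) and in 9.55%. Printed here are stretches from 9 of the 18 genes, picked to show how cores are arranged, 5′ to 3′ on the gene's strand with ISRE cores of either strand in capitals. They include overlapping cores (Isg15, Oas3, Oas1g, Oas1a, Irgm1), cores spaced apart (Ifit3), a single core (Rsad2), and overlapping cores in Bst2, for which no comparison passed. The other 9 genes, Adar, Stat2, Trim25, Gbp2, Ifitm3, Eif2ak2, Trim21, Psme1 and Ifi44, held 1 or 2 cores each in the window and are not printed.
Isg15 (chr4:156200851-156200921, minus strand): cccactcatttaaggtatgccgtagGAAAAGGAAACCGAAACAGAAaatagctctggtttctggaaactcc
Oas3 (chr5:120777695-120777759, minus strand): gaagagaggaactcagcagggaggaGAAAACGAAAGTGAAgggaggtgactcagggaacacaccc
Oas1g (chr5:120887614-120887656, minus strand): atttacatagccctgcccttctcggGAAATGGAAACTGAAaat
Oas1a (chr5:120907526-120907570, minus strand): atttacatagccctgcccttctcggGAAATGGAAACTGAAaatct
Ifit1 (chr19:34640755-34640838, plus strand): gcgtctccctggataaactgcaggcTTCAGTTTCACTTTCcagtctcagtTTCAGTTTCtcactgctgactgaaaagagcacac
Ifit3 (chr19:34583349-34583460, plus strand): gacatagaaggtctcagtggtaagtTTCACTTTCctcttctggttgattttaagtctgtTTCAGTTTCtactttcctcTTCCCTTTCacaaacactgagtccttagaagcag
Rsad2 (chr12:26456538-26456596, minus strand): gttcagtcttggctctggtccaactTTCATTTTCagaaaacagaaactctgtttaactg
Irgm1 (chr11:48871421-48871475, minus strand): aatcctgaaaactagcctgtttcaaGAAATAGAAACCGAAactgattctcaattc
Bst2 (chr8:71537563-71537627, minus strand): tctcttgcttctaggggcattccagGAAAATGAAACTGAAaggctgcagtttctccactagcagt
The 43 bases of Oas1g are identical to the first 43 of the 45 bases of Oas1a. A match of letters is a description and not evidence of binding.

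The receptor subunits and the ISGF3 components differed in how they behaved. Ifnar1 and Ifnar2 passed in no comparison, with means of 43.7 to 51.4 CPM and 5.47 to 6.25 CPM over the 4 groups. Irf9 (ENSMUSG00000002325.14, chr14:55603571-55610030, plus strand), the DNA-binding component of ISGF3, was at 14.6, 13.2, 10.8 and 11.5 CPM in untreated and 22.5, 20.02, 26.7 and 32.5 CPM in treated fl/fl cultures. In ΔIEC cultures it was at 17.4, 17.4, 15.2 and 16.6 CPM when untreated and 31.9, 27.2, 30.1 and 37.5 CPM when treated. Irf9 rose without overlap in both genotypes, by a log2 fold change of 1.01 in fl/fl (± 0.16, adjusted p = 7.12e-05) and 0.92 in ΔIEC organoids (± 0.15, adjusted p = 0.000124), and the genotypes did not differ past the threshold with IL-22 (0.31 ± 0.14, adjusted p = 0.0966). Without the second fl/fl line its rise in fl/fl was 0.60 (adjusted p = 0.0391), and without the second ΔIEC line its rise in ΔIEC was 0.75 (adjusted p = 0.0310). Stat2, another component, did not pass for IL-22, and its means were lower in ΔIEC organoids, at 22.3 ± 3.74 against 35.0 ± 8.45 CPM untreated (-0.67 ± 0.18, adjusted p = 0.0126), a difference that passed under DESeq2 (-0.66, adjusted p = 0.00661), without the filter on low counts (-0.64, adjusted p = 0.000303) and without the first fl/fl line (-0.86, adjusted p = 0.00804). With IL-22 they were 26.5 ± 5.09 against 35.8 ± 6.29 CPM (-0.44 ± 0.17, adjusted p = 0.0536).

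The transcription factors Irf1 and Irf7 rose with IL-22 in ΔIEC organoids. Irf7 (ENSMUSG00000025498.15, chr7:141262706-141266481, minus strand), which drives the genes of IFN-I itself, was at 24.7, 17.03, 10.8 and 11.5 CPM in untreated and 17.8, 17.7, 19.4 and 18.8 CPM in treated fl/fl cultures. The values in ΔIEC cultures were 8.45, 18.1, 19.2 and 14.5 CPM when untreated and 39.1, 32.0, 40.3 and 55.9 CPM when treated, and the 4 treated ΔIEC cultures lay above all 12 others. In ΔIEC organoids the rise was 1.501 on the log2 scale (± 0.24, adjusted p = 8.16e-05), and treated ΔIEC exceeded treated fl/fl organoids by 1.18 (± 0.23, adjusted p = 0.000647). No change passed in fl/fl organoids (0.18 ± 0.25, adjusted p = 0.621) or between untreated organoids (-0.14 ± 0.26, adjusted p = 0.752). The estimate in fl/fl changed sign without the second fl/fl line and ranged from -0.23 to 0.80 with cultures or lines left out. That between untreated organoids changed sign without replicate 1 of either untreated group or without the first line of either genotype, and ranged from -0.49 to 0.40.

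Irf1 (ENSMUSG00000018899.16, chr11:53770014-53778374, plus strand), a factor also induced by interferon gamma, was at 61.8, 71.6, 73.7 and 71.6 CPM in untreated and 129, 111, 124 and 112 CPM in treated ΔIEC cultures, without overlap (0.77 ± 0.10, adjusted p = 9.37e-06). In fl/fl cultures it was at 73.9, 73.7, 79.9 and 91.7 CPM when untreated and 84.0, 89.2, 109.9 and 108 CPM when treated, where the ranges overlapped (0.30 ± 0.10, adjusted p = 0.0295). With the organoid line as a block, the fl/fl rise of Irf1 passed the threshold (0.29, adjusted p = 0.00371).

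The 3 PARP genes and Dtx3l rose with IL-22 in ΔIEC organoids, and all but Parp12 also in fl/fl organoids. PARP enzymes attach ADP-ribose to proteins, and DTX3L is the ubiquitin ligase that pairs with PARP9. Dtx3l, Parp9 and Parp14 neighbour each other on chromosome 16, where Dtx3l and Parp9 lie on opposite strands and share 458 exon bases, so reads there could not be told apart if the counting ignored strand. Parp9 (ENSMUSG00000022906.15, chr16:35938470-35972605, plus strand) was at 51.8, 45.0, 42.4 and 48.8 CPM in untreated and 86.8, 86.4, 85.8 and 79.98 CPM in treated fl/fl cultures. It was at 44.6, 48.3, 42.0 and 38.5 CPM in untreated and 119.8, 93.1, 93.6 and 106 CPM in treated ΔIEC cultures. The treated cultures of each genotype were above its untreated ones, with log2 fold changes of 0.84 in fl/fl (± 0.10, adjusted p = 1.90e-06) and 1.24 in ΔIEC (± 0.10, adjusted p = 1.24e-08). The genotypes did not differ past the threshold untreated (-0.11 ± 0.10, adjusted p = 0.472) or with IL-22 (0.28 ± 0.09, adjusted p = 0.0238).

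Dtx3l (ENSMUSG00000049502.16, chr16:35926511-35939151, minus strand) followed the same course. Its levels were 47.7, 53.4, 48.3 and 45.6 CPM in untreated and 72.6, 82.9, 78.5 and 74.6 CPM in treated fl/fl cultures. In ΔIEC cultures they were 42.0, 42.9, 43.6 and 41.0 CPM when untreated and 122, 87.7, 85.8 and 80.4 CPM when treated. Both rises were without overlap, at 0.66 in fl/fl (± 0.11, adjusted p = 0.000105) and 1.14 in ΔIEC organoids (± 0.11, adjusted p = 2.12e-07). Without the second fl/fl line, the rise of Dtx3l in fl/fl was 0.63 (adjusted p = 0.0127).

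Parp14 (ENSMUSG00000034422.14, chr16:35832874-35871544, minus strand) was at 21.8, 22.4, 16.7 and 18.1 CPM in untreated and 32.3, 49.8, 36.5 and 37.0 CPM in treated fl/fl cultures. It went from 22.1, 25.2, 22.0 and 25.2 CPM to 87.1, 58.6, 55.7 and 79.6 CPM in ΔIEC cultures, where the lowest treated culture was above every other culture of the series. The log2 fold changes were 0.97 in fl/fl (± 0.16, adjusted p = 0.000143) and 1.56 in ΔIEC (± 0.16, adjusted p = 3.13e-07), and 0.83 between genotypes with IL-22 (± 0.15, adjusted p = 0.000284). Parp12 rose in ΔIEC organoids from 17.7 ± 3.12 to 37.6 ± 10.3 CPM (1.10 ± 0.19, adjusted p = 0.000146) and was higher there than in treated fl/fl organoids (0.99 ± 0.18, adjusted p = 0.000406). In fl/fl organoids Parp12 was at 11.8 ± 2.59 CPM when untreated and 19.0 ± 2.60 CPM when treated (0.70 ± 0.21, adjusted p = 0.0140), which passed with the line as a block (0.71, adjusted p = 0.00325).

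**Figure D3:**
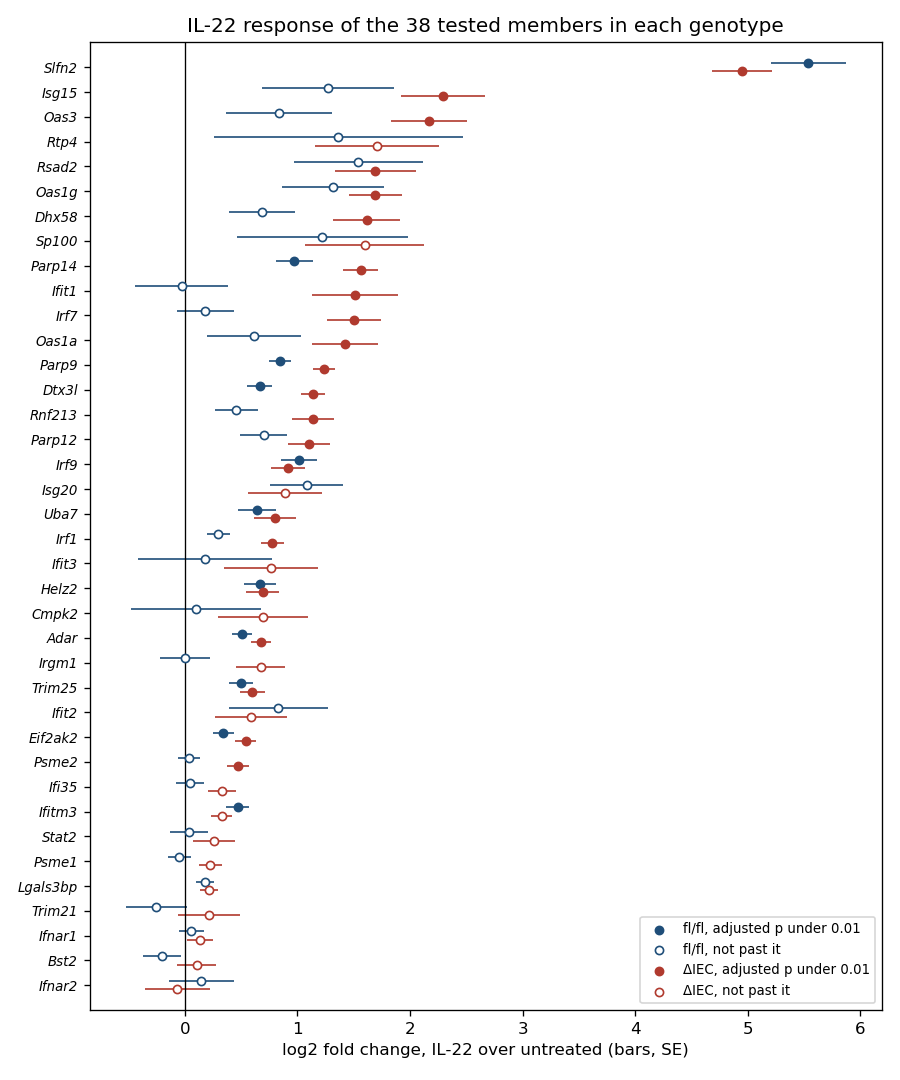
log2 fold change of IL-22 over untreated cultures with its SE for the 38 tested members, in fl/fl (blue) and ΔIEC organoids (red); filled symbols have an adjusted p under 0.01. Slfn2 stands far to the right at 5.54 and 4.95, and for 32 of the 38 members the ΔIEC value lies right of the fl/fl value.

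Of the 7 genes that sense or process double-stranded RNA, the tested OAS genes had the largest genotype differences with IL-22. OAS enzymes make 2′-5′ oligoadenylates, which activate RNase L. Oas1a, Oas1g, Oas2 and Oas3 lie in a cluster on chromosome 5, and Oas1a and Oas1g are close paralogs, so the division of reads between them is uncertain. Oas1g (ENSMUSG00000066861.14, chr5:120876142-120887613, minus strand) had 2, 2, 1 and 2 counts in the untreated fl/fl cultures, at the floor, and 1.97, 1.63, 1.12 and 0.895 CPM in the treated ones. In ΔIEC cultures it was at 2.35, 3.68, 2.40 and 4.55 CPM when untreated and 10.1, 9.34, 10.5 and 11.5 CPM when treated. All ΔIEC cultures exceeded all fl/fl cultures, and the treated ΔIEC cultures were above all others. In untreated organoids the mean of ΔIEC was at least 3.42-fold higher than a floor of 3 counts per fl/fl culture (adjusted p = 0.000239), and with IL-22 the difference was 2.90 on the log2 scale (± 0.27, adjusted p = 5.74e-07). The rise with IL-22 in ΔIEC organoids was 1.69 (± 0.24, adjusted p = 2.00e-05).

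Oas1a was at 6.69, 3.05, 1.35 and 1.86 CPM in untreated and 6.70, 5.82, 4.11 and 4.48 CPM in treated fl/fl cultures. In ΔIEC cultures it was at 7.51, 14.0, 8.41 and 6.21 CPM when untreated and 20.2, 18.4, 23.8 and 36.9 CPM when treated. The treated ΔIEC cultures were above all others, while the untreated groups overlapped. Oas1a differed between genotypes with IL-22 (2.27 ± 0.31, adjusted p = 3.21e-05) and rose in ΔIEC organoids (1.42 ± 0.29, adjusted p = 0.000996), a rise of 0.84 without the second ΔIEC line (adjusted p = 0.182). In untreated organoids its difference was 1.46 (± 0.39, adjusted p = 0.0120) and passed under DESeq2 (1.46, adjusted p = 0.00176).

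Oas3 was at 2.33, 1.27, 1.81 and 1.07 CPM in untreated and 2.37, 3.03, 2.43 and 3.58 CPM in treated fl/fl cultures, with a log2 fold change of 0.83 (± 0.47, adjusted p = 0.189). It went from 2.11, 3.68, 4.41 and 3.31 CPM to 11.7, 8.49, 12.6 and 26.2 CPM in ΔIEC cultures (2.17 ± 0.33, adjusted p = 5.60e-05). The treated ΔIEC cultures lay above all others, and exceeded treated fl/fl organoids by 2.37 on the log2 scale (± 0.33, adjusted p = 3.56e-05). Oas2 had 7, 4, 5 and 8 counts in the treated ΔIEC cultures and at most 2 in any other culture. Its mean there was at least 2.33-fold higher than a floor of 3 counts per treated fl/fl culture. Without the filter on low counts Oas2 passed in ΔIEC organoids with IL-22 (2.89 ± 0.83, adjusted p = 0.00522) and between treated organoids (3.09 ± 0.81, adjusted p = 0.00169).

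Adar, Eif2ak2 and Dhx58 act on double-stranded RNA in other ways, and all 3 rose with IL-22 in ΔIEC organoids. Adar (ENSMUSG00000027951.16, chr3:89715022-89753446, plus strand), which deaminates adenosine in double-stranded RNA, was at 39.9, 37.1, 39.3 and 41.0 CPM in untreated and 48.5, 55.2, 60.0 and 58.5 CPM in treated fl/fl cultures. In ΔIEC cultures Adar was at 40.4, 43.9, 47.7 and 41.8 CPM when untreated and 63.3, 68.7, 73.4 and 70.6 CPM when treated, and it rose without overlap in both genotypes (0.51, SE 0.09, adjusted p = 0.000193 in fl/fl and 0.68, SE 0.09, adjusted p = 7.44e-06 in ΔIEC). It shares 1365 exon bases with Chrnb2 on the opposite strand. The genotype difference of Adar with IL-22 was 0.31 (± 0.08, adjusted p = 0.00847) and was lost without any of 11 cultures (untreated fl/fl 1 and 3, all 4 treated fl/fl, untreated ΔIEC 2 and 4, treated ΔIEC 2, 3 and 4), where the adjusted p ranged up to 0.04999. Eif2ak2, which encodes the kinase PKR, rose from 39.2 ± 2.64 to 57.1 ± 5.73 CPM in ΔIEC (0.54 ± 0.09, adjusted p = 0.000193) and from 42.3 ± 3.18 to 53.8 ± 3.60 CPM in fl/fl organoids (0.34 ± 0.09, adjusted p = 0.00757). The fl/fl call of Eif2ak2 was lost without any of 6 cultures (untreated fl/fl 1, 3 and 4, treated fl/fl 2 and 4, untreated ΔIEC 2), with adjusted p from 0.0105 to 0.0262. Dhx58, which encodes the RNA helicase LGP2, rose from 3.13 ± 0.745 to 10.0 ± 2.57 CPM in ΔIEC organoids (1.61 ± 0.29, adjusted p = 0.000320), a change of 1.26 without the second ΔIEC line (adjusted p = 0.0623).

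Among the 9 genes of ISG15 conjugation and related ubiquitin enzymes, the modifier itself differed most between genotypes with IL-22 among the tested members. Isg15 (ENSMUSG00000035692.6, chr4:156199424-156200818, minus strand) had 7, 4, 0 and 3 counts in the untreated fl/fl cultures. Its levels were 2.37, 4.19, 1.87 and 1.79 CPM in treated fl/fl and 2.11, 4.41, 2.40 and 4.55 CPM in untreated ΔIEC cultures. The treated ΔIEC cultures were at 17.8, 10.5, 11.4 and 26.2 CPM, above all others. Isg15 rose in ΔIEC organoids (2.29 ± 0.37, adjusted p = 9.54e-05) and was higher there than in treated fl/fl organoids (2.66 ± 0.38, adjusted p = 3.86e-05). Neither the change in fl/fl organoids (1.27 ± 0.59, adjusted p = 0.104) nor the difference between untreated organoids (1.64 ± 0.57, adjusted p = 0.0484) passed. The untreated ΔIEC cultures lay above the untreated fl/fl ones, and their difference passed without the filter on low counts (1.66, adjusted p = 0.00333).

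Usp18 encodes the protease that removes ISG15 and restrains signalling at the IFN-I receptor. It was not tested, at 0, 1, 2 and 2 counts in untreated and 2, 5, 5 and 3 counts in treated fl/fl cultures. In ΔIEC cultures it had 1, 3, 0 and 5 counts untreated and 22, 11, 7 and 31 counts with IL-22, where every culture was above the other 12 in CPM. Without the filter on low counts Usp18 rose in ΔIEC organoids by 2.98 on the log2 scale (SE 0.52, adjusted p = 2.22e-07). Herc6, a ligase for ISG15 in mice, had 4, 3, 2 and 9 counts in the treated ΔIEC cultures and at most 2 in any other culture, and shares 1269 exon bases with a transcript on its own strand.

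Uba7, which activates ISG15 for conjugation, rose from 13.6 ± 0.607 to 23.4 ± 3.29 CPM in ΔIEC (0.80 ± 0.18, adjusted p = 0.00248) and from 19.2 ± 1.48 to 29.6 ± 8.69 CPM in fl/fl organoids (0.64 ± 0.17, adjusted p = 0.00601). The fl/fl groups overlapped, and the fl/fl call was lost without any of 5 cultures (untreated 1, 2 and 3, treated 3 and 4), with adjusted p from 0.0159 to 0.0265. In untreated organoids Uba7 was at a lower mean in ΔIEC (-0.51 ± 0.19, adjusted p = 0.0605). Trim25, a ubiquitin ligase of RNA sensing, rose from 119 ± 12.3 to 169 ± 11.1 CPM in fl/fl (0.50 ± 0.11, adjusted p = 0.00139) and from 122 ± 10.9 to 185 ± 31.9 CPM in ΔIEC organoids (0.60 ± 0.11, adjusted p = 0.000292). Helz2, a helicase and nuclear receptor coactivator, rose from 38.7 ± 7.84 to 61.3 ± 6.58 CPM in fl/fl (0.67 ± 0.14, adjusted p = 0.00138) and from 35.5 ± 6.20 to 57.6 ± 9.36 CPM in ΔIEC organoids (0.69 ± 0.15, adjusted p = 0.00143). Without the second line of the genotype, the Helz2 rises were 0.46 (adjusted p = 0.127) in fl/fl and 0.43 (adjusted p = 0.169) in ΔIEC organoids. Rnf213, a very large ubiquitin ligase, rose from 86.4 ± 7.07 to 191 ± 37.5 CPM in ΔIEC organoids (1.14 ± 0.19, adjusted p = 0.000113). Its genotype difference with IL-22 was 0.82 (± 0.18, adjusted p = 0.00218) and was lost without treated fl/fl replicate 3 (0.68, adjusted p = 0.0126) or treated ΔIEC replicate 4 (0.69, adjusted p = 0.0111). Trim21, a cytosolic antibody receptor and ubiquitin ligase, passed in no comparison, at group means of 6.19 to 7.72 CPM.

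Among the 15 other antiviral effectors, Slfn2 had by far the largest response to IL-22 of the 38 tested members. Slfn2 (ENSMUSG00000072620.3, chr11:83065112-83070678, plus strand) belongs to the Schlafen family and is known for its role in lymphocyte quiescence. It had 7, 3, 2 and 1 counts in the untreated and 109, 230, 226 and 164 counts in the treated fl/fl cultures. The corresponding ΔIEC cultures had 5, 18, 7 and 7 counts untreated and 245, 208, 292 and 363 counts with IL-22. In CPM the treated fl/fl cultures were at 43.0, 53.5, 42.3 and 48.9 and the treated ΔIEC cultures at 98.8, 58.8, 87.9 and 105, against no more than 4.41 in any untreated culture. The rise was 5.54 on the log2 scale in fl/fl (± 0.33, adjusted p = 2.80e-10) and 4.95 in ΔIEC organoids (± 0.26, adjusted p = 3.40e-11). With IL-22 the level was higher in ΔIEC organoids (0.89 ± 0.17, adjusted p = 0.000636), a difference of 0.73 without the second ΔIEC line (adjusted p = 0.0213). In untreated organoids the difference did not pass (1.49 ± 0.57, adjusted p = 0.0706), but passed without the filter on low counts (1.51, adjusted p = 0.00614).

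Ifitm3 (ENSMUSG00000025492.6, chr7:141009586-141010770, minus strand), which blocks fusion of viral with cellular membranes, had the opposite profile, with the largest difference lying between genotypes. Fl/fl cultures were at 37.8, 36.6, 44.2 and 45.0 CPM when untreated and 58.8, 55.4, 60.2 and 51.0 CPM when treated. ΔIEC cultures were at 89.2, 91.4, 103 and 104 CPM when untreated and 121, 108, 119.5 and 135 CPM when treated. The 4 groups did not overlap in this order, and untreated ΔIEC cultures were above all treated fl/fl cultures. The genotype difference was 1.24 on the log2 scale in untreated (± 0.10, adjusted p = 1.80e-07) and 1.10 in treated organoids (± 0.09, adjusted p = 2.25e-07). IL-22 raised Ifitm3 in fl/fl organoids by 0.47 (± 0.10, adjusted p = 0.00126), a rise of 0.35 without the first fl/fl line (adjusted p = 0.0835). In ΔIEC organoids its log2 fold change was 0.33 (± 0.09, adjusted p = 0.0105), which passed with the line as a block (0.32, adjusted p = 0.00131).

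**Figure D4:**
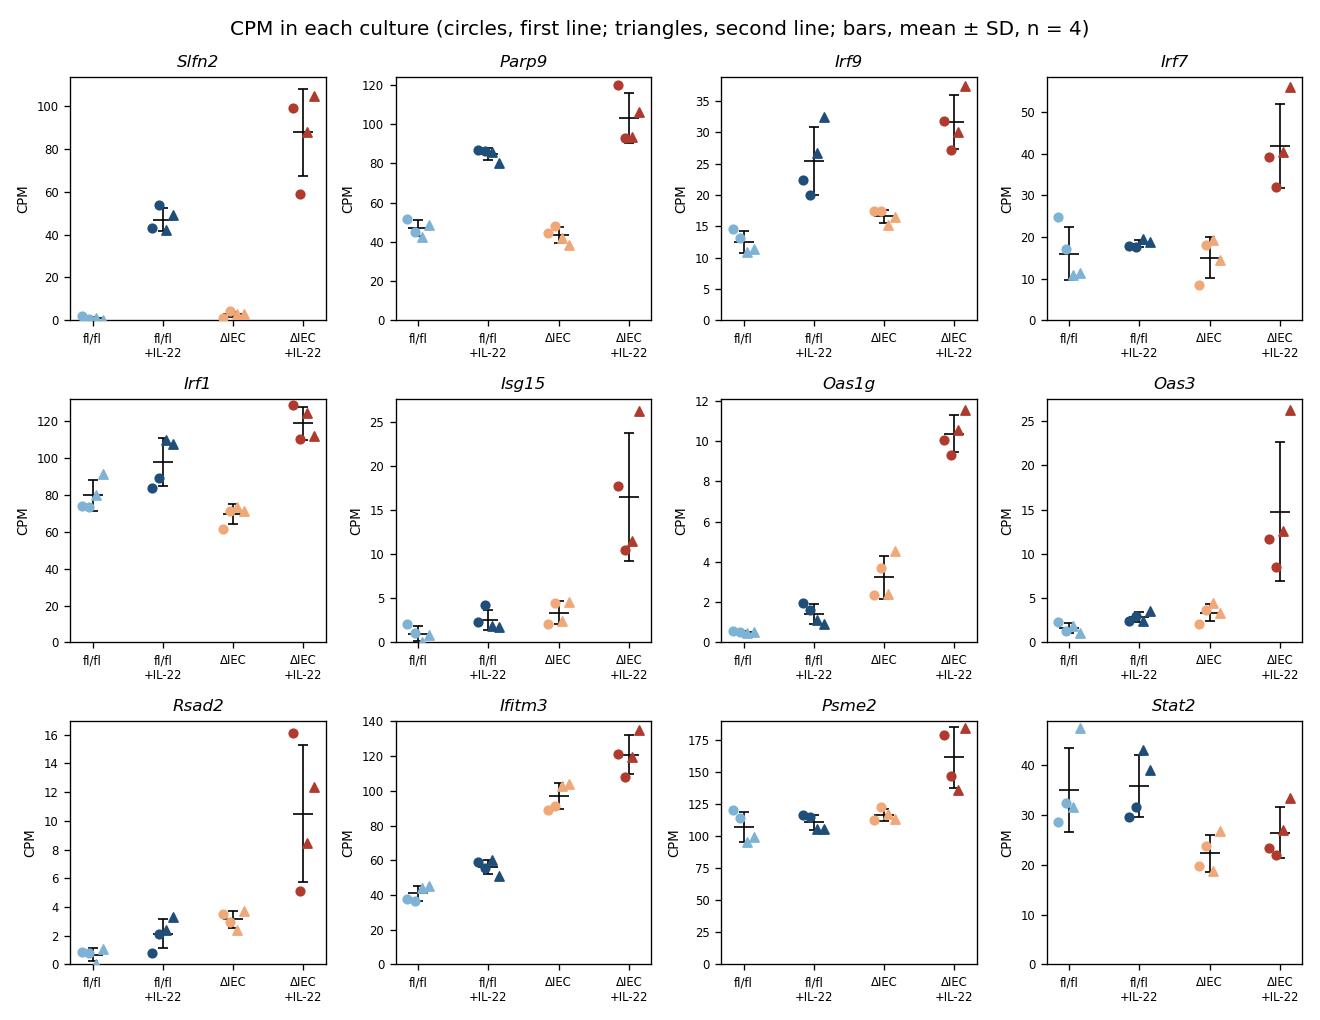
CPM of 12 members in each of the 16 cultures (circles, first organoid line; triangles, second line; black, mean ± SD, n = 4; each vertical axis starts at 0). Slfn2, Parp9 and Irf9 are raised by IL-22 in both genotypes, Ifitm3 separates by genotype, and Irf7, Isg15, Oas3 and Rsad2 are highest in the 4 IL-22–treated ΔIEC cultures.

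Rsad2 and Cmpk2, which encode the antiviral enzyme viperin and a nucleotide kinase, are neighbours on chromosome 12 read in opposite directions. Rsad2 had 3, 3, 0 and 4 counts in the untreated fl/fl cultures and was at 0.789, 2.10, 2.43 and 3.28 CPM in the treated ones. In ΔIEC cultures Rsad2 was at 3.52, 2.94, 2.40 and 3.72 CPM when untreated and 16.1, 5.09, 8.43 and 12.4 CPM when treated, with all treated cultures above the other 12. The rise of Rsad2 passed in ΔIEC (1.69 ± 0.36, adjusted p = 0.00122) and not in fl/fl organoids (1.54 ± 0.57, adjusted p = 0.0460). Its genotype difference passed with IL-22 (2.19 ± 0.37, adjusted p = 0.000196) and not in untreated organoids (2.03 ± 0.55, adjusted p = 0.0134), where it passed under DESeq2 (2.10, adjusted p = 0.00525). Cmpk2 was at 11.6 ± 7.58 CPM in treated ΔIEC and 2.61 ± 1.25 CPM in treated fl/fl organoids (2.11 ± 0.45, adjusted p = 0.00163), and its change with IL-22 in ΔIEC organoids did not pass (0.69 ± 0.40, adjusted p = 0.218). Without treated fl/fl replicate 3 the genotype difference of Cmpk2 with IL-22 was 1.82 (adjusted p = 0.0103). In untreated organoids Cmpk2 was at 6.84 ± 2.53 CPM in ΔIEC and 2.54 ± 0.90 CPM in fl/fl. That untreated difference did not pass, but passed without the filter on low counts (1.54, adjusted p = 0.000124).

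The 3 IFIT genes, whose proteins bind viral RNA, lie side by side on chromosome 19. All 3 were higher in treated ΔIEC than in treated fl/fl organoids, and none of these 3 calls held under limma-voom with a correlation between cultures of a line (adjusted p = 0.0259 for Ifit1, 0.0288 for Ifit2 and 0.0380 for Ifit3). The untreated difference of Ifit2 (adjusted p = 0.0778) and the treated differences of Cmpk2 (adjusted p = 0.0287), Irgm1 (adjusted p = 0.0319) and Adar (adjusted p = 0.0266) were lost there too. Ifit1 was at 7.28, 6.10, 6.32 and 5.06 CPM in untreated and 5.13, 7.68, 4.11 and 7.46 CPM in treated fl/fl cultures. Its ΔIEC cultures were at 3.05, 5.64, 2.80 and 12.4 CPM when untreated and 19.4, 10.5, 9.33 and 25.9 CPM when treated, where the highest untreated culture was above the 2 lowest treated ones. The rise of Ifit1 in ΔIEC organoids (1.51 ± 0.38, adjusted p = 0.00513) was lost without any of 5 cultures (untreated ΔIEC 1, 2 and 3, treated ΔIEC 1 and 4), with adjusted p from 0.0139 to 0.0354. Its genotype difference with IL-22 was 1.41 (± 0.37, adjusted p = 0.00596), lost without treated fl/fl 1 or 3 or treated ΔIEC 1 or 4 (adjusted p 0.0175 to 0.0375).

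Ifit2 was at 0.873, 1.27, 1.35 and 2.13 CPM in untreated and 1.97, 3.03, 2.62 and 2.39 CPM in treated fl/fl cultures. In ΔIEC cultures Ifit2 was at 5.64, 3.92, 1.60 and 6.62 CPM when untreated and 10.5, 4.81, 5.72 and 6.63 CPM when treated. The untreated groups overlapped and the treated groups did not. The genotype difference was 1.64 in untreated (± 0.41, adjusted p = 0.00867) and 1.39 in treated organoids (± 0.34, adjusted p = 0.00416), while the IL-22 effect in ΔIEC did not pass (0.58 ± 0.32, adjusted p = 0.191). The untreated difference was lost without any of 11 of the 16 cultures (all but untreated fl/fl 4, untreated ΔIEC 3 and treated ΔIEC 1, 2 and 3), with adjusted p up to 0.0385 without untreated ΔIEC replicate 1. With IL-22 it was lost without treated fl/fl 1, 3 or 4 or treated ΔIEC 1 (adjusted p 0.0114 to 0.0177). Ifit3 was at 5.61 ± 2.97 CPM in treated ΔIEC and 1.31 ± 0.907 CPM in treated fl/fl organoids (1.90 ± 0.46, adjusted p = 0.00396), a call lost without treated fl/fl 1 or 4 or treated ΔIEC 1 or 4 (adjusted p 0.0126 to 0.0228). Its near copy Ifit3b makes the count of Ifit3 uncertain.

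Lgals3bp was the most abundant of the 44 genes in every group. It was at 273, 250.1, 229 and 215 CPM in untreated and 276, 294, 267 and 257 CPM in treated fl/fl cultures. ΔIEC cultures were at 303, 330.4, 342 and 324 CPM when untreated and 358, 375, 355 and 419 CPM when treated. All ΔIEC cultures exceeded all fl/fl cultures, with a genotype difference of 0.42 untreated (± 0.08, adjusted p = 0.00137) and 0.46 with IL-22 (± 0.08, adjusted p = 0.000296). Rtp4, an interferon-induced chaperone of membrane receptors, had 3, 1, 0 and 0 counts in untreated and 0, 8, 4 and 1 counts in treated fl/fl cultures. In ΔIEC cultures Rtp4 had 1, 16, 3 and 6 counts untreated and 16, 15, 14 and 38 counts with IL-22. The treated ΔIEC cultures were above the other 12 in CPM, and the genotype difference with IL-22 passed (2.92 ± 0.62, adjusted p = 0.00145). Between untreated organoids Rtp4 passed only without the filter on low counts (adjusted p = 0.00278).

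The remaining effectors passed in no comparison. Isg20, a 3′ to 5′ exonuclease, was at 2.90 ± 0.213 CPM in untreated and 6.35 ± 1.37 CPM in treated fl/fl organoids, and passed there with the line as a block (1.06, adjusted p = 0.00501). Ifi35 lay at group means of 35.1 to 44.4 CPM and Bst2, which encodes the virion-retaining protein tetherin, at 20.2 to 24.5 CPM. Sp100, a nuclear body protein gene, had 1, 3, 2 and 2 counts in untreated fl/fl and 13, 10, 6 and 32 counts in treated ΔIEC cultures. Treated fl/fl cultures had 4 to 10 and untreated ΔIEC cultures 3 to 7 counts. Without treated ΔIEC replicate 3, Sp100 passed for IL-22 in ΔIEC (1.88, adjusted p = 0.00931) and between treated organoids (1.97, adjusted p = 0.00455). The latter also passed without treated fl/fl replicate 4 (2.21, adjusted p = 0.00729), and both without the filter on low counts. Ifi44 and Xaf1 were not tested. Ifi44 had 3, 4, 6 and 4, then 3, 6, 12 and 6 counts in untreated and treated fl/fl cultures, and 2, 8, 4 and 4, then 7, 16, 5 and 15 in ΔIEC cultures. Xaf1, which encodes an inhibitor of XIAP, had 6, 6, 2 and 5, then 5, 13, 11 and 7 counts in fl/fl and 3, 9, 3 and 3, then 14, 9, 13 and 24 counts in ΔIEC cultures. Without the filter on low counts Xaf1 rose in ΔIEC organoids (1.78, SE 0.44, adjusted p = 0.000841) and Ifi44 did not pass (1.26, SE 0.48, adjusted p = 0.0615).

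The 2 GTPase genes act against intracellular pathogens. Irgm1, an immunity-related GTPase tied to autophagy, was at 35.3 ± 14.3 CPM in treated ΔIEC and 19.98 ± 3.26 CPM in treated fl/fl organoids (0.80 ± 0.21, adjusted p = 0.00767). These groups overlapped, and the call was lost without treated fl/fl 1, 2 or 3, untreated ΔIEC 2 or treated ΔIEC 1 or 4 (adjusted p 0.0101 to 0.0367). Gbp2, a guanylate-binding protein gene, had 2, 4, 3 and 4 counts in treated ΔIEC cultures and at most 2 in any other culture. The proteasome activator subunits Psme1 and Psme2, which widen the peptide output of the proteasome, were both higher in treated ΔIEC than in treated fl/fl organoids. Psme2 was at 120.2, 114, 95.3 and 98.8 CPM in untreated and 116, 115, 106 and 105 CPM in treated fl/fl cultures. It went from 112, 122, 117 and 113 CPM to 178, 147, 135 and 184 CPM when treated in ΔIEC cultures, above all other cultures. The rise in ΔIEC was 0.47 (± 0.10, adjusted p = 0.00106) and the genotype difference with IL-22 0.54 (± 0.10, adjusted p = 0.000330). Psme1 was at 105 ± 12.9 against 76.7 ± 7.48 CPM in treated organoids (0.45 ± 0.10, adjusted p = 0.00231), lost without treated fl/fl replicate 2 (0.36, adjusted p = 0.0167).

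**Figure D5:**
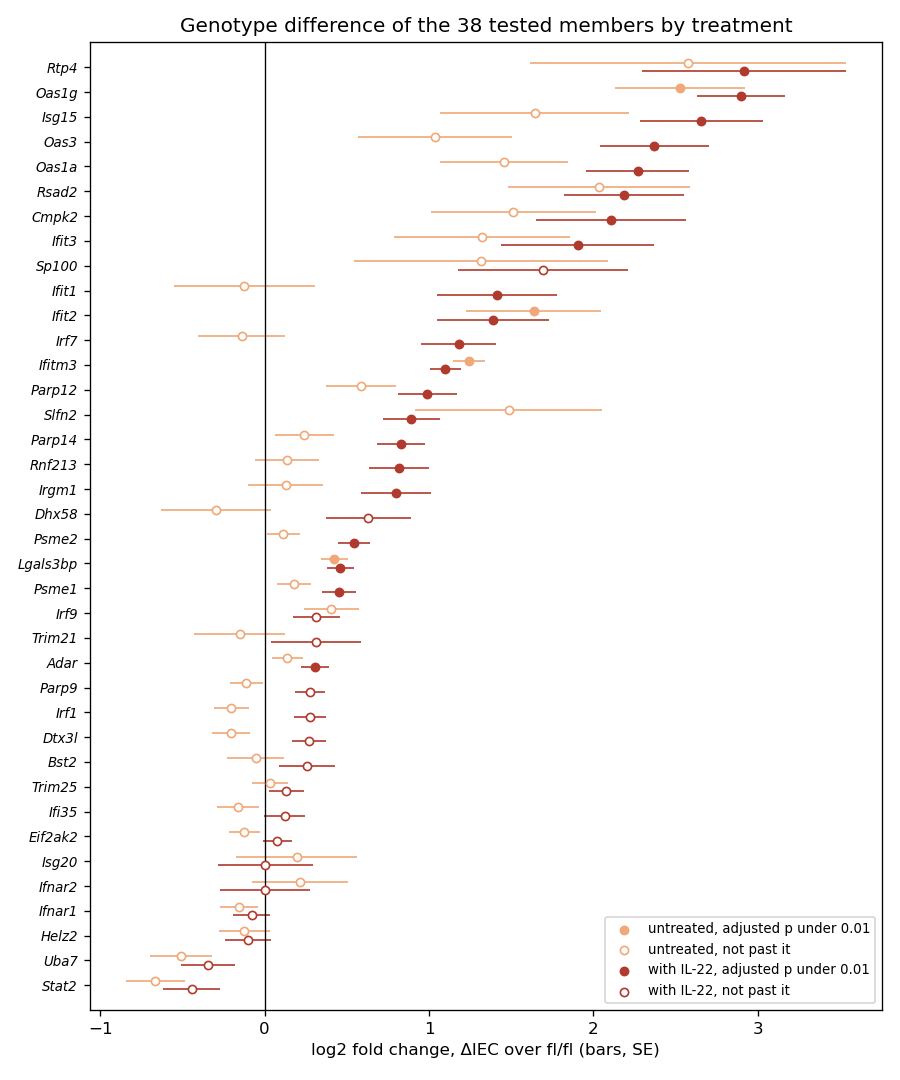
log2 fold change of ΔIEC over fl/fl organoids with its SE for the 38 tested members, untreated (orange) and with IL-22 (red); filled symbols have an adjusted p under 0.01. Ifitm3, Lgals3bp, Ifit2 and Oas1g are filled in both, while Irf7 and Ifit1 lie near 0 untreated and at 1.18 and 1.41 with IL-22.

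Whether IL-22 acted differently in the genotypes was tested as an interaction, the log2 effect in ΔIEC minus that in fl/fl organoids. It passed for 0 of the 38 members and for 0.0159% of all tested genes, and 11 members had an unadjusted p under 0.05, against 912 of the 12559 genes. The smallest p among the members was that of Irf7, at 1.32 (± 0.35, adjusted p = 0.301). It was followed by Irf1 at 0.48 (± 0.14, adjusted p = 0.407), Psme2 at 0.43 (± 0.14, adjusted p = 0.458), Dtx3l at 0.47 (± 0.16, adjusted p = 0.483) and Parp9 at 0.39 (± 0.14, adjusted p = 0.517). The interaction of Ifit1 was 1.54 (± 0.57, adjusted p = 0.531) and that of Slfn2 -0.59 (± 0.59, adjusted p = 0.897). Of the 38 estimates 32 were above 0, with a median of 0.36 against 0.03 over all genes. With the line as a block the adjusted p of Irf7 was 0.0160 and that of Irf1 0.0191, and again no member passed. DESeq2 called 0 members, and the fit with no filter on low counts called 3, Irf7 (adjusted p = 1.09e-05), Ifit1 (adjusted p = 0.00777) and Rnf213 (adjusted p = 0.00163). The estimate of Irf7 was 1.32 with and without the filter, so its smaller adjusted p there does not stand for a larger effect. That fit takes the spread as known, and its 3 calls carry little weight. Over all settings the adjusted p of Irf7 ran from 1.09e-05 to 1.00.

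A second list of 84 genes of the interferon pathways that are not among the 44 was examined in the same fits, and 54 were tested. The 10 interferon genes in it (Ifnb1, Ifna1, Ifna2, Ifna4, Ifna5, Ifnk, Ifne, Ifnl2, Ifnl3 and Ifng) had at most 1 count in any culture, below the floor of 3. Transcripts of these 10 genes were thus not detected at this depth and with this counting. Reads aligned at several places were not counted, which lowers paralogs such as the Ifna genes and Ifnl2 and Ifnl3. IL-22 raised 8 and lowered 3 of the 54 in fl/fl organoids, against 10.6% and 10.2% of all tested genes, and raised 18 and lowered 2 in ΔIEC organoids, against 9.83% and 7.65%. ΔIEC was higher for 1 and lower for 1 in untreated organoids (3.78% and 5.98% of all genes) and higher for 6 and lower for 3 in treated organoids (9.92% and 9.84%), shares that for the treated genotype comparison lie near those of all genes. No interaction passed. Zbp1, a sensor of Z-form nucleic acids that can start necroptosis, rose from 1.20 ± 0.660 to 10.2 ± 1.95 CPM in fl/fl (3.15 ± 0.47, adjusted p = 4.07e-05) and from 2.08 ± 2.32 to 20.6 ± 3.17 CPM in ΔIEC organoids (3.56 ± 0.41, adjusted p = 1.81e-06). Lgals9, which encodes galectin-9, rose in both genotypes (0.43 ± 0.07, adjusted p = 5.54e-05 in fl/fl and 0.62 ± 0.07, adjusted p = 6.07e-07 in ΔIEC) and was higher in ΔIEC organoids both untreated (0.27 ± 0.07, adjusted p = 0.00626) and treated (0.47 ± 0.07, adjusted p = 3.36e-05). The transcription factor gene Irf8 rose in both genotypes (0.53 ± 0.08, adjusted p = 6.48e-05 in fl/fl and 0.36 ± 0.08, adjusted p = 0.00298 in ΔIEC), as did the immunoproteasome subunit gene Psmb10 (0.47 ± 0.11, adjusted p = 0.00218 and 0.81 ± 0.11, adjusted p = 9.12e-06). Jak2, a kinase of cytokine receptors, was lower in untreated ΔIEC organoids (-0.48 ± 0.08, adjusted p = 0.000715). With IL-22, Nmi, an interferon-induced STAT-binding protein gene, and Tapbp, a peptide-loading factor gene for MHC class I, were higher in ΔIEC (0.91 ± 0.16, adjusted p = 0.000262 and 0.59 ± 0.11, adjusted p = 0.000322). The 3 genes lower in treated ΔIEC organoids were Irf3 (-0.54 ± 0.14, adjusted p = 0.00709), Irf8 (-0.31 ± 0.08, adjusted p = 0.00734) and Tdrd7 (-0.39 ± 0.11, adjusted p = 0.00837).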

How the data were processed

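RNA sequencing was done on 16 organoid cultures. The authors trimmed reads with cutadapt, aligned them with TopHat2 to GRCm38/mm10 and counted them per gene with HTSeq, and deposited raw counts of all cultures in 1 table. The kit is named differently in the labels and the methods, and neither HTSeq's strand option nor the annotation it used is given in the sources used here. Symbols came from GENCODE vM21 by identifier without version. HTSeq rows that name no gene were left out of library sizes. On genes fell 36.3% to 38.3% of the table, with 21.5% to 24.2% aligned at several places and not counted, which lowers paralogs.

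Counts were tested with edgeR 4.0.16 (R 4.3.3) in 1 quasi-likelihood fit of the 4 groups, with TMM scaling, a filter (minimum count 10, 2.86 CPM in enough cultures) that left 12559 genes, two-sided tests and Benjamini-Hochberg adjustment over all of them. Scripts were tested on simulated data. Alternatives were DESeq2 1.42.0, limma 3.58.1, other scalings, filters and thresholds, summed cultures, the organoid line as a replicate block within a genotype, and each culture or line left out. The labels name the line, which pairs treated with untreated cultures. Deviations from the group mean correlated at 0.263 to 0.438 in fl/fl and 0.0563 to 0.321 in ΔIEC organoids within a line. Across lines they correlated at -0.435 to -0.0779. Deviations cancel out over a group, so negative values across lines follow from positive ones within a line and add no separate evidence. No 2 cultures agreed within counting noise.

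The members and lists were chosen with earlier results of these data known, and the study itself picked some of these genes on these cultures. Values per culture are given for called members at the floor, the 5 members of smallest p in each comparison and untested members; per-culture values of Ifit1, Rsad2, Psme2 and other members were added after their values were seen.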

Additional observations from a re-analysis of the deposited data

Results flagged for a closer look

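In 8 of 163 groups of 4 cultures checked over the members, 1 culture stood apart from the other 3 by Dixon's test at 95%, and chance gives about 1 in 20. Irf1 was at 61.8 CPM in untreated ΔIEC replicate 1, against 71.6 to 73.7 CPM in the others. Parp9 was at 79.98 CPM in treated fl/fl replicate 4, against 85.8 to 86.8 CPM. Helz2 was at 50.4 CPM in untreated fl/fl replicate 1, against 33.4 to 35.8 CPM. In treated ΔIEC replicate 2, Trim21 was at 4.53 CPM, against 8.43 to 9.28 CPM, and Dhx58 at 6.22 CPM, against 10.5 to 11.7 CPM. Uba7 was at 18.6 CPM in treated ΔIEC replicate 1, against 24.7 to 25.7 CPM. Among members with few counts, Ifi44 was at 2.71 CPM in untreated fl/fl replicate 3, against 0.873 to 1.07 CPM, and Xaf1 at 3.03 CPM in treated fl/fl replicate 2, against 1.97 to 2.09 CPM.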

How the results depend on the processing

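With IL-22 in fl/fl organoids 11 members were called. The count was 4 with the cultures of a line summed and 3 to 12 with cultures or lines left out, and the median log2 fold change was 0.63 without the filter on low counts, 0.31 with at least 10 counts in every culture and 0.42 to 0.62 with cultures or lines left out. In ΔIEC organoids the 22 calls became 14 with at least 10 counts in every culture, 11 with summed cultures and 12 to 24 with cultures or lines left out, and the median was 1.02 without the filter. Between untreated organoids the 4 calls became 9 at an adjusted p of 0.05 (Stat2 lower and the others higher), 11 without the filter (Stat2 again lower), 2 with at least 10 counts in every culture, 0 with summed cultures, 7 with DESeq2 (Stat2 again lower) and 2 to 5 with cultures or lines left out. The median there turned to -0.024 with at least 10 counts in every culture, a filter that removes the low members, and was 0.12 to 0.26 with cultures or lines left out. With IL-22 the 21 genotype calls became 9 and 5 with at least 10 counts in every culture and with summed cultures, with medians of 0.84 without the filter and 0.28 with at least 10 counts. With limma-voom and a correlation between cultures of a line the 21 became 15. Without the filter 3 interactions passed, in the fit whose p-values take the spread as known. The 19 members with treated ΔIEC above all others were 10 with at least 10 counts in every culture and 34 with summed cultures, which have 2 values per group. Atg16l1 in untreated organoids was at -3.93 with summed cultures (adjusted p = 0.0132). Irf7 ran from -0.23 to 0.80 for IL-22 in fl/fl and from -0.49 to 0.40 between untreated organoids with cultures or lines left out. The causes of these changes were not tested. Shares of all genes were counted for the main fit only, so member counts under other settings, the block fit below included, have no background beside them.

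With the organoid line as a replicate block, 15 members were called for IL-22 in fl/fl, 26 in ΔIEC organoids and 0 for the interaction, with medians of 0.50, 0.78 and 0.30. Added to those named in the report were Rnf213 in fl/fl (adjusted p = 0.000659) and Lgals3bp (adjusted p = 0.00882), Irgm1 (adjusted p = 0.00200) and Rtp4 (adjusted p = 0.00549) in ΔIEC organoids. Depth limits the genes at or near the floor, where a culture holds a few counts.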
